A study of Drosophila melanogaster and Drosophila simulans and Drosophila sechellia with 48 samples.

Results

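Oxidative phosphorylation is the process by which the inner mitochondrial membrane turns electrons from NADH and succinate into ATP. Complex I takes electrons from NADH and complex II, which is also succinate dehydrogenase of the TCA cycle, takes them from succinate. Complex III passes them to cytochrome c, complex IV reduces oxygen with them, and complex V, the ATP synthase, makes ATP from the proton gradient that complexes I, III and IV build. In flies the flight muscles are packed with mitochondria, and many nuclear genes for these subunits have a duplicate copy that is used mainly in the testis.

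The genes described here were chosen by symbol. They are those whose annotated symbol starts with ND- (complex I), Sdh (complex II), UQCR or Cyt-c (complex III and cytochrome c), COX (complex IV) or ATPsyn (complex V), together with RFeSP, cype and levy, where the array gave values for at least 1 species or the hybrids. The annotation held 44 such symbols, of which 29 had values, out of 3225 named genes with values. Of the 29, 23 are subunits and 6 are paralogs, recognised by a symbol that ends in L or L2. With values were 10 of 16 subunits of complex I, 2 of 3 of complex II, 2 of 2 of complex III, 2 of 3 of complex IV and 7 of 9 of complex V. The paralogs with values were ND-24L and ND-51L2 of complex I, SdhBL and SdhCL of complex II, and COX6CL and COX7AL of complex IV. No gene for cytochrome c itself, RFeSP or cype was among the annotated symbols.

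Whole bodies of males were profiled in D. melanogaster (strain 14021-0231.00), D. simulans (strain 14021-0251.2), D. sechellia (Cousin Island) and the sterile F1 hybrid males of D. simulans mothers and D. sechellia fathers. The stages were larval (96 h after larval emergence), early pupal (4 h after puparium formation by the sample labels, while the study's methods give an earlier hour), late pupal (72 h on the same clock) and adult (1.5 h past eclosion). Every stage and group had 3 arrays, 48 in all, each hybridised with RNA from 25 males. In the pure species the 3 arrays repeat 1 pool of RNA, whereas the hybrid arrays come from 3 pools.

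A value is the log2 ratio of the sample to a mixed-stage D. melanogaster male reference that was on every array in the other dye, with no dye swap. It gives the level of a gene relative to that reference, so levels of different genes cannot be ranked. By the study's methods the RNA of the samples was amplified and that of the reference was not. ATPsynG lay below 0 at all 4 stages in every group, and the part of amplification in such an offset was not tested. The probes are D. melanogaster cDNA. Values in the other species can carry a bias from sequence divergence that was not examined here, and signal of a subunit and of a similar copy can mix on such probes. In whole bodies, fewer cells of a type and less RNA per cell cannot be told apart.

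Values were complete for 23 of these genes in D. melanogaster, 26 in D. sechellia, 18 in the hybrids and 23 in D. simulans, and for 15 in all of them. COX6CL was measured only in D. melanogaster, Cyt-c1 and ND-SGDH only in D. sechellia, and SdhBL only in D. simulans. In 7 of the 16 groups, 2 arrays had correlated spot noise and were counted as 1. In 6 of these, all of pure species, the correlation was 0.93 to 0.97, and in the other, arrays 1 and 2 of adult hybrids, it was 0.61. The medians of the arrays over all genes lay between -0.09 and 0.09. Larval hybrid array 1 stood apart from its 2 companions, over all genes as well as for these. Over all genes the SD of its differences was 0.70 from array 2 and 0.68 from array 3, against 0.37 between arrays 2 and 3. It is among the hybrid arrays that supply the error of the tests below. The median of array 1 over the 16 subunits was -1.12, against 0.07 and -0.14 on arrays 2 and 3, and it was the lowest of the 3 for 16 of 16 subunits.

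Subunits of complexes I, II, IV and V were low in early pupae in all 3 species and in the hybrids, as were those of complex III in the species, while the hybrids had no value for that complex. Early pupae had the lowest mean of the 4 stages for 17 of 18 subunits in D. melanogaster, 22 of 22 in D. sechellia, 18 of 18 in D. simulans and 16 of 16 in the hybrids. Over all genes that share was 18.8%, 21.5%, 22.2% and 24.5%. The exception was ND-39 in D. melanogaster, an accessory subunit of complex I, which was lowest in adults. The median over the subunits went from -0.08 in larvae to -1.36 in early pupae and -0.27 in late pupae in D. melanogaster, and from 0.18 to -1.45 and 0.06 in D. sechellia. In D. simulans it went from -0.57 to -1.77 and 0.44, and in the hybrids from -0.41 to -1.55 and 0.11.

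**Figure D1:**
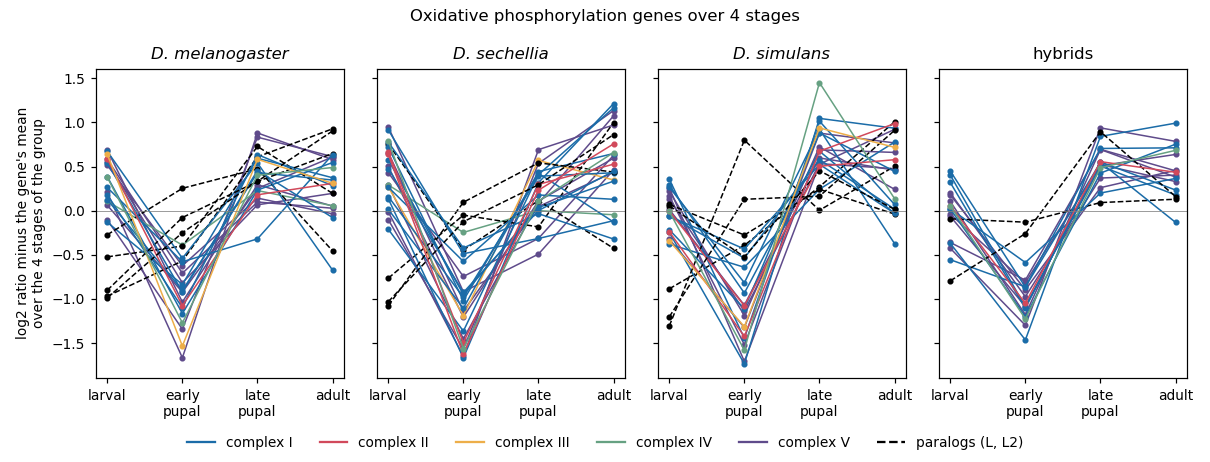
Mean log2 ratio to the reference of each gene at the 4 stages (x axis), minus the gene's own mean over the stages of that group (y axis), with 1 panel for each species and the hybrids. Solid lines are subunits, coloured by complex, and dashed black lines are paralogs. Subunits of each complex with values dip in early pupae, while most paralog lines start low in larvae.

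The dip can be read on the arrays themselves. Arrays of a pure species repeat 1 pool per stage, and those with correlated spot noise are kept apart in this count. Their separation does not measure the spread between pools. The 3 early pupal arrays lay below every larval and every late pupal array for 16 of 18 subunits in D. melanogaster, where COX4 and ND-B22 were the exceptions, against 10.4% of all genes. The same held for 19 of 22 subunits in D. sechellia (18.5% of all genes), 15 of 18 in D. simulans (9.5%) and 9 of 16 in the hybrids (6.91%). No subunit showed the opposite arrangement in any group. With larval array 1 so low, the hybrids had the largest number of overlaps, at 7 of 16 subunits.

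Complex V held the subunits with the largest rise. ATPsynbeta encodes the catalytic subunit of the ATP synthase. In D. melanogaster its arrays read 0.91, 0.98 and 1.35 in larvae, -0.95, -0.94 and -0.49 in early pupae, 1.40, 1.96 and 1.90 in late pupae, and 0.93, 1.76 and 1.66 in adults. In D. sechellia they read 1.19, 1.38 and 1.55, then 0.04, -0.35 and 0.03, then 1.92, 1.89 and 2.23, and 2.48, 2.79 and 2.56 in adults. The early pupal arrays were the lowest in each species, with no overlap with any other stage.

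The same gene read 0.72, 0.99 and 0.79 in larvae of D. simulans, -0.97, -1.32 and -1.11 in early pupae, 1.10, 1.14 and 1.06 in late pupae, and 1.27, 1.99 and 1.23 in adults. In the hybrids the arrays read 0.94, 1.47 and 1.07, then -0.11, 0.07 and -0.33, then 1.95, 1.91 and 1.38, and 1.46, 1.39 and 1.46. The hybrid arrays of early pupae were also separate from those of every other stage. Over the mean of the 3 species, ATPsynbeta fell by 1.76 on the log2 scale from larva to early pupa (SE 0.23, limma adjusted p = 2.34e-05), a fall of 3.4-fold. It then rose by 2.31 to the late pupa (SE 0.23, limma adjusted p = 6.14e-07), which is 4.97-fold.

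**Figure D2:**
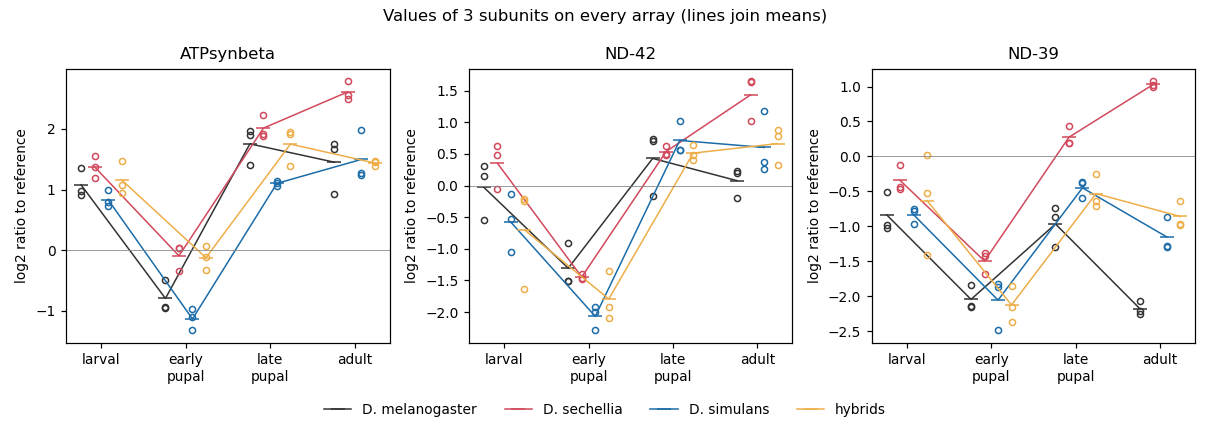
Log2 ratio to the reference (y axis) of ATPsynbeta, ND-42 and ND-39 at the 4 stages (x axis). Open circles are the 3 arrays of a group and lines join their plain means. ATPsynbeta and ND-42 are lowest in early pupae of all 4 groups, and ND-39 separates D. sechellia from D. melanogaster in adults.

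The question of which genes changed was put to all named genes in a single limma model. A gene was called at an adjusted p under 0.05 and at least 1.5-fold, and 1732 genes, 18 of them members, had values in all 3 species. From larva to early pupa 14 of 14 subunits fell, with changes from -1.85 to -0.82 and a median of -1.43. Over all genes 11.3% fell, 24.1% were called in either direction, and the median was 0.02. From early to late pupa 14 of 14 subunits rose, from 1.05 to 2.31 with a median of 1.52, where 12% of all genes rose, 14.1% fell and 26.1% were called. These transitions share the early pupal arrays, so the fall and the rise are not independent.

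Complex I contributed 6 subunits to that comparison, all of which fell (median -1.26) and then rose (median 1.49). The largest changes were those of ND-42, an accessory subunit. Its arrays read 0.16, -0.55 and 0.31 in larvae of D. melanogaster, -1.51, -1.51 and -0.90 in early pupae, and -0.16, 0.74 and 0.71 in late pupae. In D. simulans they read -1.06, -0.54 and -0.14, then -2.29, -2.0 and -1.92, then 0.56, 1.02 and 0.55. In D. sechellia they read -0.05, 0.49 and 0.63, then -1.46, -1.40 and -1.47, then 0.50, 0.48 and 0.63. Early pupae did not overlap the neighbouring stages in any of these species.

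ND-42 fell by 1.49 (SE 0.32, limma adjusted p = 0.00268) and rose by 2.16 (SE 0.32, limma adjusted p = 7.60e-05). ND-51, which carries the flavin that accepts electrons from NADH, changed by -1.32 and 1.79. Its second element on the array followed the same course, from 0.22 to -1.22 and 0.55 in D. melanogaster and from 0.57 to -1.26 and 1.46 in D. simulans. ND-15 had the smallest changes of the subunits, -0.82 and 1.05. Its fall did not pass with arrays scaled to the same SD or without replicate 3, where the adjusted p reached 0.0602.

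Complex II was represented by its membrane anchor subunits SdhC and SdhD. SdhC read -1.51 on each of the 3 early pupal arrays of D. melanogaster, against 0.16, -0.26 and 0.56 in larvae and -0.40, -0.12 and -0.24 in late pupae. In D. sechellia it read -1.01, -1.15 and -0.98 in early pupae, against 1.08, 1.28 and 0.99 in larvae and 0.75, 0.69 and 0.80 in late pupae. The stages were separate in each of these species. SdhC fell by 1.64 over the 3 species (SE 0.24, limma adjusted p = 6.93e-04) and rose by 1.54 (SE 0.24, limma adjusted p = 8.75e-04), with a standard error that rests on the other genes because the hybrids gave no value. SdhD, not measured in D. melanogaster, fell by 2.23 and rose by 1.80 in D. sechellia, and fell by 1.11 and rose by 1.60 in the hybrids. In D. simulans it rose by 1.85 after a value of -1.19 that did not pass (limma adjusted p = 0.217).

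Complex III rested on a gene or none per group. UQCR-6.4, a small subunit, read -2.13, -2.11 and -2.01 in early pupae of D. melanogaster, against -0.03, -0.01 and 0.31 in larvae and -0.58, 0.60 and 0.08 in late pupae, with no overlap. It fell by 2.15 (SE 0.42, limma adjusted p = 0.0172) and rose by 2.10 (SE 0.42, limma adjusted p = 0.0144) in that species. In D. simulans its value of -0.97 did not pass (limma adjusted p = 0.298), and it rose by 2.14 (limma adjusted p = 0.0121). Cyt-c1, whose haem hands electrons to cytochrome c, read -2.45, -2.94 and -2.42 in early pupae of D. sechellia, against -1.41, -0.93 and -1.10 in larvae and -0.72, -0.77 and -1.05 in late pupae. It fell by 1.54 (SE 0.42, limma adjusted p = 0.0497) and rose by 1.79 (SE 0.42, limma adjusted p = 0.0292). Neither UQCR-6.4 nor Cyt-c1 had hybrid values, so their standard errors rest on the other genes.

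Complex IV had levy, a small subunit, in all groups and COX4 in D. melanogaster and D. sechellia. The levy arrays read -1.14, -1.21 and -0.90 in early pupae of D. melanogaster, against 0.22, 0.43 and 1.06 in larvae and 0.37, 0.85 and 0.55 in late pupae. In D. sechellia they read -1.47, -1.53 and -1.47, against 0.64, 1.09 and 0.87 and then 0.11, 0.17 and 0.27. In D. simulans they read -1.64, -2.02 and -1.61, against -0.40, 0.17 and -0.33 and then 1.42, 1.04 and 1.37. The fall of 1.85 (SE 0.35, limma adjusted p = 7.99e-04) was the largest among the 14 subunits, at 3.6-fold, and the rise was 2.10 (SE 0.35, limma adjusted p = 2.08e-04).

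COX4 had smaller changes than levy in each of these species. Its value from larva to early pupa was -0.37 in D. melanogaster and -0.60 in D. sechellia, and from early to late pupa 0.50 and 0.24, none of which passed (limma adjusted p from 0.387 to 0.809). Its early pupal arrays overlapped those of a neighbouring stage in each species. Without hybrid values, the standard error of COX4 also rests on the other genes.

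Complex V as a whole, ATPsynbeta included, had 6 of 6 subunits falling (median -1.49) and 6 of 6 rising (median 1.49) over the 3 species. ATPsynC, which forms the ring turned by protons, read -1.07, -1.08 and -0.85 in early pupae of D. melanogaster, -0.66, -1.06 and -0.66 in D. sechellia, then -1.39, -1.28 and -0.93 in those of D. simulans, and -0.90, -0.93 and -1.32 in the hybrids. In late pupae the same arrays read 0.94, 1.10 and 1.49, then 1.59, 1.52 and 1.54, then 0.92, 1.25 and 0.86, and 1.20, 1.29 and 1.06. No early pupal array of any group reached the late pupal range, and the rise was 2.27 (SE 0.22, limma adjusted p = 4.95e-07). It passed in each species and in the hybrids. ATPsyngamma, the rotating shaft, changed by -1.45 and 1.66, and ATPsynG by -1.55 and 1.09. The rise of ATPsynG did not pass without replicate 2 or without replicate 3, with adjusted p-values up to 0.0691.

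**Figure D3:**
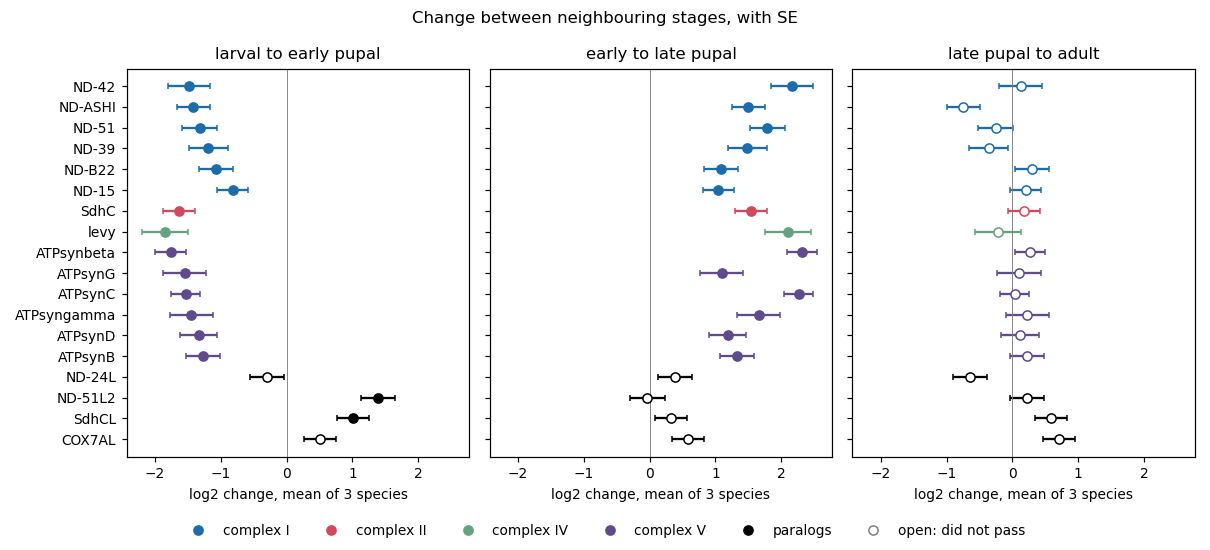
Log2 change in the mean of the 3 species (x axis, point with SE) for the 14 subunits and 4 paralogs measured in all of them, from larva to early pupa, early to late pupa, and late pupa to adult. Filled points passed the test, open points did not. The 14 subunits lie left of 0, then right of it, then around it, and the paralogs keep apart in the first pair of panels.

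From late pupa to adult the subunits changed little in the mean of the species. None of the 14 passed the limma test (13.8% of all genes did), 1 had an unadjusted p under 0.05, and the changes ran from -0.75 to 0.30 with a median of 0.12. That single gene was ND-ASHI, an accessory subunit of complex I whose gene is on the X chromosome, at -0.75 (limma adjusted p = 0.056). The net change from larva to adult, a comparison added after the transitions were seen, had a median of 0.25 over the subunits. ATPsynbeta (0.81) and ATPsynC (0.78) ended higher than in larvae and ND-ASHI lower (-0.66), while 11 of 14 subunits did not pass (40.2% of all genes did). From larva to late pupa the net change was above 0 for 18 of 18 subunits in D. simulans, 16 of 16 in the hybrids, 8 of 18 in D. melanogaster and 7 of 22 in D. sechellia. The hybrid count rested on larval array 1, without which 9 of 16 lay above 0. No test was made of these counts, and no share of all genes above 0 is given beside them. From late pupa to adult, some subunits moved in opposite directions in single species, which the mean hides. ND-39 changed by -1.21 in D. melanogaster and 0.73 in D. sechellia, and levy by 0.50 in D. sechellia and -1.24 in D. simulans. Neither difference between species passed. Adults were highest for 4 of 18 subunits in D. melanogaster, 10 of 22 in D. sechellia and 6 of 18 in D. simulans. Late pupae were highest for 6, 1 and 12 of them.

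Within single groups the same directions held but fewer genes passed. Every subunit was below its larval mean in early pupae, 18 of 18 in D. melanogaster, 22 of 22 in D. sechellia, 18 of 18 in D. simulans and 16 of 16 in the hybrids. Called lower by limma were 2 (2.04% of all genes), 11 (3.68%), 3 (2.61%) and 12 (10.4%). Every subunit lay higher in late than in early pupae, and 3 of 18 (3.31%), 8 of 22 (3.65%), 12 of 18 (3.92%) and 16 of 16 (17.4%) were called. In the pure species, 1 pool per stage leaves the spread to be taken from the hybrid pools, and the counts differed widely between alternatives. Without replicate 3, the members called at any transition went from 3 to 2 in D. melanogaster (9.97% of all genes in the full data), 14 to 2 in D. sechellia (14.4%), 13 to 5 in D. simulans (11.6%) and 17 to 10 in the hybrids (47.8%). Without replicate 1 they were 14 in D. melanogaster and 20 in D. sechellia.

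Most paralogs did not follow the dip. Of the 4 measured in all species, 2 rose from larva to early pupa (12.9% of all genes rose), none fell, and none passed from early to late pupa, where the 14 subunits rose. ND-51L2, a duplicate of the flavin subunit ND-51, read 0.18, -0.23 and 0.50 in larvae of D. simulans and 2.39, 2.44 and 1.94 in early pupae. It read 0.58, 0.31 and 0.49, then 1.34, 1.34 and 1.17 in D. melanogaster, and 0.41, 0.22 and -0.16, then 1.15, 1.66 and 1.17 in D. sechellia. All early pupal arrays lay above all larval arrays of the same species. The rise was 1.39 over the 3 species (SE 0.26, limma adjusted p = 8.37e-04), at 2.61-fold, and the change to the late pupa was -0.03.

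SdhCL, a duplicate of the membrane anchor SdhC, climbed over the whole interval. Its arrays in D. melanogaster read 0.25, 0.05 and 0.14 in larvae, 0.86, 0.82 and 0.98 in early pupae, 1.62, 1.32 and 1.46 in late pupae, and 2.06, 2.28 and 1.77 in adults. In D. sechellia they read -1.06, -0.54 and -0.88, then -0.01, 0.25 and 0.00, then 0.54, 0.52 and 0.44, and 1.10, 0.98 and 1.12. In D. simulans they read -0.76, -0.75 and -0.61, then 0.58, 0.86 and 0.43, then 0.64, 0.68 and 0.66, and 1.63, 0.92 and 1.66. Successive stages did not overlap in D. melanogaster and D. sechellia, and in D. simulans only the pupal stages did. SdhCL rose by 1.01 from larva to early pupa (SE 0.24, limma adjusted p = 0.0116). As for SdhC, the hybrids gave no value and the standard error rests on the other genes.

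The distance between a paralog and its subunit was taken within arrays. ND-51L2 minus ND-51 averaged 0.11 in larvae of D. melanogaster and 1.96 in early pupae, -0.53 and 1.77 in D. sechellia, then -0.69 and 3.22 for D. simulans, and -0.54 and 1.21 in the hybrids. SdhCL minus SdhC averaged 0.00 and 2.40, -1.95 and 1.13, and -0.35 and 2.05 in the 3 species. On every array the difference was larger in early pupae than on any larval array of the group. As each value is relative to the reference, these differences follow the course of a pair and do not say which gene had more RNA.

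**Figure D4:**
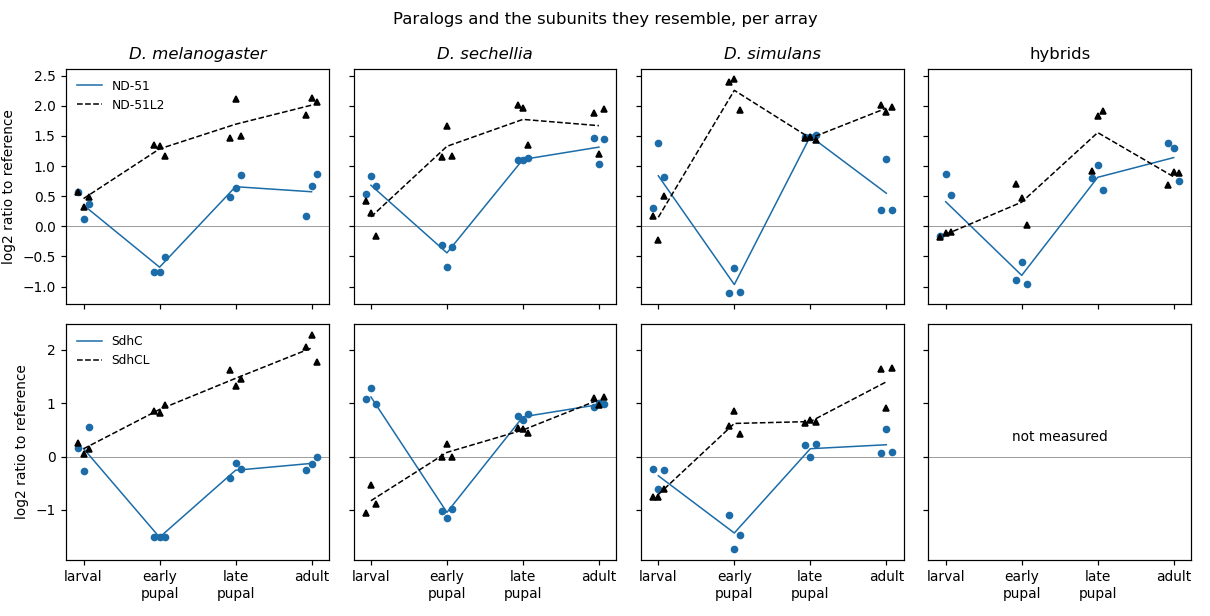
Log2 ratio to the reference (y axis) of ND-51 and its paralog ND-51L2 (top) and of SdhC and its paralog SdhCL (bottom) at the 4 stages (x axis) in the 3 species and the hybrids. Points are arrays, lines join plain means, and SdhC and SdhCL had no values in the hybrids. From larvae to early pupae the paralog's line goes up and the subunit's line goes down in each panel with values.

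Of the remaining paralogs, COX7AL had changes of 0.51 and then 0.59 and ND-24L of -0.30 and then 0.39, and none of these passed. COX7AL, a duplicate of a small subunit of complex IV, read -0.73, -0.71 and -0.65 in larvae and 0.90, 1.26 and 1.44 in adults of D. melanogaster, -1.58, -1.76 and -1.81 and then 0.16, -0.17 and 0.14 in D. sechellia, and -1.29, -1.68 and -1.24 and then 0.66, 0.19 and 0.62 in D. simulans. Larvae and adults did not overlap in any species, and the net change of 1.81 passed, as did those of SdhCL (1.92) and ND-51L2 (1.58). For COX7AL and SdhCL, not measured in the hybrids, the standard error rests on the other genes. ND-24L, a duplicate of an iron-sulfur subunit of complex I, had a net change of -0.55 that did not pass (limma adjusted p = 0.097). Its plain means in larvae, early and late pupae dipped in D. sechellia (0.32, -0.88 and -0.32) and D. simulans (-0.08, -0.42 and 0.10). In D. melanogaster they rose (-0.60, -0.07 and 0.15), and in the hybrids they were -0.56, -0.60 and -0.37. In no group did its early pupal arrays all lie below those of both neighbouring stages. From late pupa to adult no paralog was called, although 3 of 4 had an unadjusted p under 0.05, a level for which no share of all genes is given here.

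The paralogs measured in a single species gave no call. COX6CL read -0.78, -0.52 and -0.53 in larvae of D. melanogaster, -0.58, -0.57 and -0.31 in early pupae, 0.57, 0.81 and 0.54 in late pupae, and 0.38, 0.14 and -0.19 in adults. Late pupae were highest, and the rise of 1.08 did not pass (limma adjusted p = 0.186). SdhBL was the only paralog whose early pupal arrays all lay below those of larvae and late pupae. It read -0.22, 0.12 and 0.26 in larvae of D. simulans, -0.58, -0.47 and -0.54 in early pupae, 0.61, 0.44 and 0.29 in late pupae and -0.14, 0.35 and -0.18 in adults, with changes of -0.58 and 0.97 that did not pass (limma adjusted p = 0.641 and 0.238).

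Tissue markers moved at the same transitions. Of 10 sarcomere and flight muscle genes, 8 fell from larva to early pupa (median -2.63) and 8 rose to the late pupa (median 1.99). Mlc1, a myosin light chain, fell by 3.89, and Scp1, a calcium-binding protein of muscle, rose by 5.36. From late pupa to adult 2 of the 10 rose, led by Zasp66, a protein of the Z-disc, at 2.08. The list's median went from between -0.36 and 0.67 in larvae of the 4 groups to between -2.76 and -2.39 in early pupae and between -0.73 and 0.03 in late pupae. Of 6 testis genes, 4 rose from larva to early pupa (median 0.81) and none passed at the other transitions. S-Lap7, a sperm leucyl aminopeptidase, rose by 1.06. These tissue lists were chosen with earlier results of these data known. The part of muscle or testis in the changes of the subunits and paralogs was not tested.

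Other energy genes were set beside the subunits, from lists chosen with earlier results of these data known. In the TCA cycle 5 of 6 genes fell (median -0.91), led by CG5214 at -1.21, and 5 of 6 rose (median 1.19). Idh3b, a subunit of isocitrate dehydrogenase, rose by 1.51, and muc, a subunit of pyruvate dehydrogenase, had values of 0.40 and -0.13 that did not pass. In glycolysis 6 of 9 genes fell (median -1.72), led by Eno, the enolase, at -2.41, and 4 of 9 rose (median 0.54), led by Pgi at 1.05. To the adult only Gpdh1, a glycerol-3-phosphate dehydrogenase, passed, with a rise of 1.64.

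Mitochondrial carriers went in both directions. Of 8 genes, 4 fell and 1 rose, then 3 rose and 1 fell. Mpcp1, which imports phosphate for the ATP synthase, fell by 2.40, rose by 2.64, and rose again by 1.37 to the adult. Tpc1, the carrier of thiamine pyrophosphate, rose by 0.80 and fell by 0.99. Neither gene of fatty acid beta-oxidation, whd and yip2, passed at any transition. Of 4 genes of mitochondrial gene expression and biogenesis, Marf, a mitofusin, fell by 0.69, and 2 rose to the late pupa, led by Phb2 at 0.73. The mitochondrial peroxidase gene Prx3 rose by 1.60 from early to late pupa. Its values of -0.66 from larva to early pupa and -0.64 to the adult did not pass.

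The remaining tissue lists were short. Both fat body genes fell from early to late pupa and again to the adult. Fbp1 had changes of -1.10 and -2.24, and Fbp2 of -0.87 and -2.84. Of the 2 neuronal genes, nrv3, a subunit of the sodium pump, rose by 3.09 from early to late pupa and Arr1 did not pass. Of 3 midgut genes, Jon65Aiv, a digestive protease, fell by 1.26 at the same transition.

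Comparisons between species asked whether the subunits differed at a stage. Only ND-39 was called, in adults. It read -2.25, -2.08 and -2.21 in adult D. melanogaster, 1.00, 1.08 and 1.02 in D. sechellia, then -1.30, -0.87 and -1.29 for adult D. simulans, and -0.98, -0.97 and -0.63 in the hybrids. The groups did not overlap except D. simulans and the hybrids. D. melanogaster was lower than D. sechellia by a log2 difference of -3.22 (SE 0.51, limma adjusted p = 0.0148), in a comparison where 0.405% of all genes were called, and the call was lost without replicate 3. In early pupae the 2 species read between -2.16 and -1.84 and between -1.68 and -1.39, closer together and still without overlap.

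Most subunits had higher values in D. sechellia than in the other species in larvae and adults, although ND-39 alone passed. In larvae 16 of 17 subunits were lower in D. melanogaster than in D. sechellia (median -0.60, all genes -0.01), and 16 of 17 were lower in D. simulans than in D. sechellia (median of D. sechellia minus D. simulans 0.56, all genes 0.00), with the D. sechellia arrays common to these comparisons. In adults 15 of 17 were lower in D. melanogaster (median -0.87) and 13 of 17 lower in D. simulans (median of D. sechellia minus D. simulans 0.45). By limma no gene at all was called between species in larvae, and 2 subunits had an unadjusted p under 0.05 in each of these larval comparisons. In late pupae D. sechellia was lower than D. simulans in 12 of 17 subunits (median -0.37). Muscle genes shifted in the same way, with 9 of 10 lower in larvae of D. melanogaster than of D. sechellia (median -0.70) and 10 of 10 in adults (median -1.06), and their part was not tested.

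Paralogs lay on the other side in adults. There 4 of 4 were higher in D. melanogaster than in D. sechellia (median 0.73) and 4 of 4 lower in D. sechellia than in D. simulans (median -0.41), none of them called. In larvae 3 of 4 were higher in D. melanogaster than in D. sechellia, and 2 of 4 were lower in D. sechellia than in D. simulans. SdhCL differed by between 0.79 and 0.99 between D. melanogaster and D. sechellia at all 4 stages. The largest such difference was that of COX7AL in late pupae, 2.02 (limma adjusted p = 0.059). Its D. melanogaster arrays there read 0.75, 1.07 and 0.82, without overlap with the D. sechellia arrays at -1.14, -1.14 and -1.13.

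**Figure D5:**
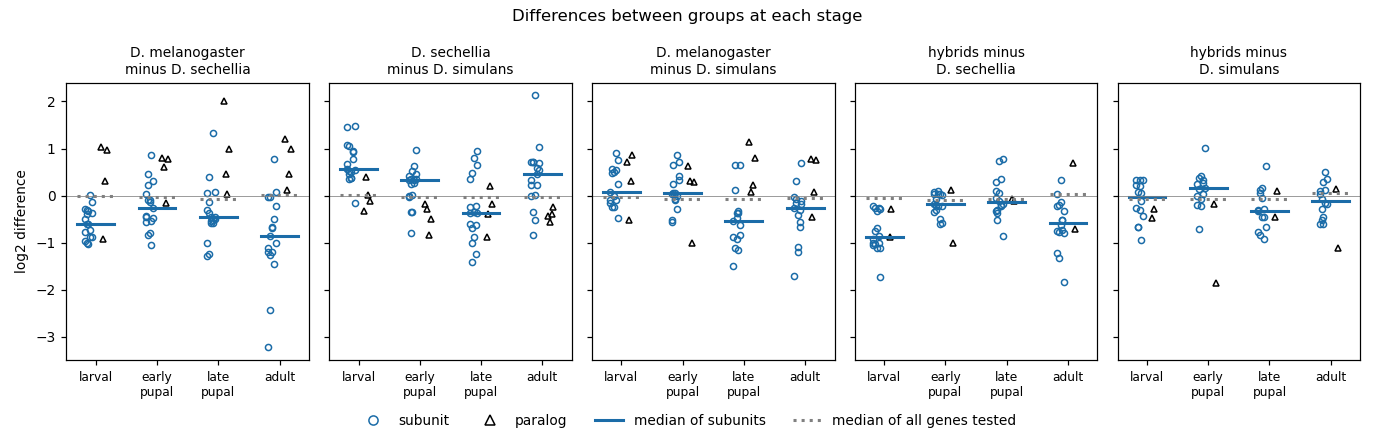
Log2 difference between groups (y axis) at each stage (x axis) for every subunit (circles) and paralog (triangles) measured in the pair, with the median of the subunits (solid bar) and of all genes tested (dotted bar). Subunits lie mostly below 0 for D. melanogaster minus D. sechellia and hybrids minus D. sechellia in larvae and adults, and paralogs mostly above 0 in the first of these.

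Hybrids were compared with each parent. In larvae 16 of 16 subunits were lower in the hybrids than in D. sechellia (median -0.89), none called by limma (0.171% of all genes were). Of the 16, 8 had an unadjusted p under 0.05, as did 363 of 1759 genes tested. Without larval hybrid array 1 it was 13 of 16, with a median of -0.53. Against D. simulans 7 of 14 were lower (median -0.03), and without that array 4 of 14 (median 0.33). Muscle genes shifted against D. sechellia too, with 10 of 10 lower in larval hybrids (median -0.60, and -0.48 without array 1) and 8 of 10 in adults (median -0.37), none called, and their part was not tested. In adults 14 of 16 were lower than in D. sechellia (median -0.58, 3.01% of all genes called). ND-39 was the only subunit called, at -1.85 (SE 0.44, limma adjusted p = 0.0330), and the call was lost without hybrid adult replicate 3 or without replicate 3. Against D. simulans the difference of ND-39 was 0.28 and did not pass.

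The other called gene was ND-51L2 in early pupae. The hybrid arrays read 0.71, 0.48 and 0.02, below the 2.39, 2.44 and 1.94 of D. simulans and the 1.15, 1.66 and 1.17 of D. sechellia, with no overlap. The difference from D. simulans was -1.85 (SE 0.37, limma adjusted p = 0.0138, 2.29% of all genes called), and that from D. sechellia was -1.01, which did not pass (limma adjusted p = 0.917). The call was lost without hybrid early pupal replicate 3, without replicate 2 and without replicate 3. In late pupae the hybrid arrays read 0.92, 1.84 and 1.91, overlapping the 1.46, 1.49 and 1.44 of D. simulans, and in adults 0.69, 0.90 and 0.88, below every array of each parent.

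In the hybrids ND-51L2 rose by 1.15 from early to late pupa (SE 0.26, limma adjusted p = 0.0023), where the value in D. simulans was -0.79. The difference between these changes was 1.94 and did not pass (SE 0.52, limma adjusted p = 0.246). Testis genes were below D. simulans at these stages and at others. In early pupae 4 of 4 testis genes were below D. simulans (median -1.01, 1 called) and D. sechellia (median -0.40, none called). In adults 4 of 4 were below D. simulans (median -1.76, 3 called) and D. sechellia (median -1.27, 1 called). Of all genes in adults, 64 of 1659 were called lower and 8 higher against D. simulans, and 51 of 1759 lower and 2 higher against D. sechellia. In late pupae, where ND-51L2 overlapped D. simulans, 4 of 4 testis genes were also below that parent (median -0.80, none called). Against D. sechellia in late pupae 2 of 4 were below and 2 above (median 0.03). In larvae 3 of 4 were below each parent. The testis list was chosen with earlier results of these data known, and the part of testis in ND-51L2 was not tested. ND-24L, the other paralog measured in the hybrids, was not called, with differences from the parents of 0.70 at the most upwards and -0.88 downwards. No member was called against both parents in 1 direction, while 2.34% of all genes were.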

How the data were processed

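The deposited table holds, for every spot of 48 arrays, the log2 ratio of the sample's dye to the reference's. The authors dropped weak or flawed spots, required that an element's 2 spots pass on every array of a group's whole series, and normalized with a spatial and intensity loess within arrays. Scanner intensities were not used, and values were not weighted by them.

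From there the 2 spots of an element were averaged. Of 27648 probes, 14966 had 1 gene symbol, 264 several and 12418 none listed, and probes with several symbols, such as 1 shared by ND-15 and CG3436, were left out. All 29 members matched the gene table by name. For a gene with several elements, the one measured in the most groups was kept.

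Arrays of a group whose duplicate-spot differences correlated at 0.61 to 0.97 (7 pairs, against -0.03 to 0.04 in the other 41) were merged, and pure-species arrays averaged, which gave 23 units and 7 residual degrees of freedom. limma 3.58.1 (R 4.3.3, prior degrees of freedom 10.4) was fitted to all genes, with Benjamini-Hochberg adjustment per comparison. Hybrid pools supply the error, which the species are taken to share, and 1357 genes that lack hybrid values, 11 members included, rest on limma's prior. The 11 are COX4, COX6CL, COX7AL, Cyt-c1, ND-B17.2, ND-B18, ND-SGDH, SdhBL, SdhC, SdhCL and UQCR-6.4. The p-values thus measure the spread between hybrid pools, or for those genes the prior alone. No spread between pools of a pure species enters them. Tested on simulated data for the change in the mean of the species from larva to early pupa (1732 genes), the fit recovered 100 of 100 genes changed by 2 on the log2 scale and 93 of 100 changed by 1, with 8 false calls. Simulated data cannot show whether pools of the real species share the spread of the hybrid pools.

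Genes described by values of their own were the member with the largest change per complex and transition among those measured in all 3 species, every member called between groups, every paralog (ND-24L by its means), any cytochrome c gene, and, where it passed the test, the largest change in each direction of each comparison list. Other members, such as UQCR-6.4, Cyt-c1, COX4 and SdhD, were named after their values were seen, to represent their complexes. Members and lists were chosen with earlier results of these data known. Same-numbered hybrid arrays deviated together between early and late pupae (correlations of 0.19 to 0.38) and between late pupae and adults (0.17 to 0.43), but not for every number in the other 4 pairs of stages. With the hybrid pool number as a block, an alternative chosen after seeing the data, 17 hybrid members were called from early to late pupa, as without it, and 1, ND-51L2, from late pupa to adult, where none was called in the main model and the same 1 with adult hybrid arrays unmerged and no block. The other alternatives were other units, a replicate block over every array, scalings, elements, gene sets, a trended prior, left-out replicates and the methods' test over spots.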

Additional observations from a re-analysis of the deposited data

Results flagged for a closer look

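For 9 pairs of changes, every array of a group moved up between neighbouring stages while every array of another moved down. The differences between the changes were tested in the limma model and none passed (adjusted p from 0.246 to 1.00). ND-51L2 from early to late pupa differed by 1.94 between the hybrids (1.15) and D. simulans (-0.79), with an unadjusted p of 0.00169, and by 1.22 between D. melanogaster (0.44) and D. simulans. From late pupa to adult it differed by 1.19 between D. simulans (0.47) and the hybrids (-0.72).

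ND-39 from late pupa to adult differed by 1.94 between D. melanogaster (-1.21) and D. sechellia (0.73), and by 1.32 between D. sechellia and D. simulans (-0.60). ND-B22, an accessory subunit of complex I, differed by 1.40 between D. melanogaster (0.95) and D. simulans (-0.45), and by 0.83 between D. sechellia (0.38) and D. simulans. ATPsynG differed by 1.68 between D. sechellia (1.03) and D. simulans (-0.66), and levy by 1.73 between D. sechellia (0.50) and D. simulans (-1.24). In the pure species such separation is between arrays of 1 pool.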

How the results depend on the processing

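Over the mean of the 3 species, 16 members were called from larva to early pupa and 14 from early to late pupa, with 14 to 16 and 13 to 14 under the alternatives that kept all replicates, and 15 to 16 and 13 to 15 when replicates were left out. Of 789 values of single members under alternatives, 779 kept their call, 10 lost it and 0 turned direction. Most of these values are changes in the mean of the 3 species. Leaving out a single hybrid array cannot move such a change, only its SE, so there its direction was fixed. The ranges with replicates left out include those settings. From late pupa to adult the 0 members called became 3 with every array as a replicate, 1 with near-identical arrays not merged, 1 with arrays scaled to the same SD, and 0 to 2 with replicates left out. The 6 called from larva to adult became 3 without replicate 2 (range 3 to 7).

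With every array as a replicate, which takes technical arrays as independent, members called at any transition went from 3 to 23 in D. melanogaster, from 14 to 25 in D. sechellia and from 13 to 22 in D. simulans, and stayed at 17 in the hybrids. The methods' test over spots gave the same 4 counts with either correction. Between species the counts became 17, 13 and 16 (from 1, 0 and 0), between hybrids and parents 15 and 9 (from 1 and 1), and 4 against both parents (from 0). Shares of all genes called are not given for the alternatives, so none of their counts can be set against other genes. The replicate block with every array gave 3 from late pupa to adult, 23, 25, 22 and 17 within groups, 17, 14 and 16 between species, 15 and 9 against the parents, and 4 against both. In the pure species a number names 1 of 3 arrays of a pool and pairs nothing. With the hybrid pool number as a replicate block, added after seeing the data, the members called became 2 from late pupa to adult over the 3 species, 9 within D. melanogaster, 3 for the comparison of D. melanogaster with D. sechellia and 4 for hybrids against D. sechellia. All 33 calls of single members were kept.

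Scaling to the same SD gave 6 in D. melanogaster, and 2 each for D. melanogaster against D. sechellia and for hybrids against D. sechellia, as did leaving near-identical arrays unmerged. With replicates left out, the counts ran from 2 to 14 within D. melanogaster, 2 to 20 within D. sechellia, 5 to 17 within D. simulans and 10 to 17 within the hybrids. Between species they ran from 0 to 4, 0 to 1 and 0 to 1, and between hybrids and D. sechellia or D. simulans from 0 to 3 and 0 to 1. Leaving out larval hybrid array 1 alone reached the upper ends of 17 within D. simulans and 3 for hybrids against D. sechellia. The cause of the ranges was not tested.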
